A study of Mus musculus with 6 samples.

Results

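The transcripts described here are those of 44 mouse DNA replication genes, taken by symbol from a count table of 23337 genes. The list holds the genes of origin recognition and licensing, the replicative helicase and its activators, the primase and polymerases, the sliding clamp and its loader, flap removal and ligation, nucleotide supply, the G1/S regulators E2f1, E2f2, Ccne1 and Ccne2, and chromatin assembly. The genes were matched by symbol, and each of the 44 was found once. The list itself was chosen with earlier results of these data known. The cells were mouse hematopoietic stem and progenitor cells (HSPCs) transformed in every library by MLL-AF9, a gene fusion found in acute leukemias. They were kept under pro-lymphoid culture conditions (3 libraries, replicates 1, 5 and 6) or pro-myeloid culture conditions (3 libraries, replicates 2, 3 and 4), and polyadenylated RNA was sequenced. All libraries carry the oncogene, so the comparison is between culture conditions within transformed cells and holds no untransformed control. The labels give neither the animals' age nor the culture factors. They also leave unsaid whether the libraries of a group are independent cultures, so each p-value rests on the variation among 6 libraries, part of which may be technical.

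A cell copies its genome once per division. In G1 phase the origin recognition complex (ORC), with CDC6 and CDT1, loads the ring-shaped MCM helicase onto DNA, and at the start of S phase CDC45 and the GINS complex turn it into a moving helicase. Polymerase alpha-primase then lays down primers, polymerases delta and epsilon extend them with the clamp PCNA, and many of the genes involved are transcribed at the G1/S transition under control of E2F factors. Dividing leukemic progenitors express this set, and it falls when blood cells leave the cycle as they mature.

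The libraries held 34972488 to 46724382 counts, at which 3 counts correspond to 0.0642 to 0.0858 CPM (counts relative to library size). All CPM values below use TMM scaling (trimmed mean of M-values), and the lists of values run in the order of replicates 1, 5 and 6 for pro-lymphoid and 2, 3 and 4 for pro-myeloid culture. Means are given ± SD over the 3 libraries of a group (n = 3). The 5 progenitor and leukemia markers (Ptprc, Kit, Cd34, Hoxa9 and Meis1) were all present, with summed levels of 705 to 955 CPM in pro-lymphoid and 844 to 862 CPM in pro-myeloid libraries. The sums hide opposite changes, since edgeR called all 5. Kit and Cd34 were 3.35 and 2.63 times higher in pro-lymphoid culture, and Meis1, Hoxa9 and Ptprc were 2.71, 1.94 and 1.30 times higher in pro-myeloid culture. Summed levels of 10 granule markers were 163 to 367 CPM against 4777 to 9076 CPM (6 tested, all lower in pro-lymphoid culture by edgeR, Retnlg at 0 throughout). Those of 6 monocyte and macrophage markers were 422 to 834 CPM against 754 to 1369 CPM. Of the 5 tested, edgeR called Itgam alone, lower in pro-lymphoid culture. The other 4 did not pass, Csf1r and Cd14 having lower and Cd68 and Emr1 higher pro-lymphoid means. The B cell, T cell and erythroid lists summed to at most 2.72, 0.732 and 1.24 CPM in any library and the stromal list to at most 19.4 CPM, with Cd3e, Hba-a1, Hbb-b1, Col1a2, Col3a1 and Dcn at 0. The highest B cell sums were mostly Pax5, which was not tested (2.40 and 1.69 CPM in pro-myeloid replicates 3 and 4). Among the tested genes of these lists edgeR called Col1a1 alone, lower in pro-lymphoid culture and at most 1.43 CPM in any library. The part that the granule and monocyte markers have in the replication results was not tested. In bulk RNA, fewer cells that express a gene and less of its RNA per cell cannot be told apart.

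Replication transcripts were mostly higher in pro-lymphoid culture, by less than 2-fold for most genes. Of the 44 genes, 16 rose in pro-lymphoid culture relative to pro-myeloid culture (edgeR adjusted p under 0.05), which is 36.4% of them against 17.4% of all 12477 tested genes. E2f2, a transcription factor of the E2F family, was the only member that was lower there, 2.27% of members against 21.3% of tested genes. In either direction, 17 members passed (38.6%), the same share as among all tested genes (38.6%), so the share that passed was that of the background and the directions were uneven. A log2 fold change (pro-lymphoid minus pro-myeloid) above 0 was fitted for 40 of 44 members (90.9%, against 6236 of 12477 tested genes), and its median over the members was 0.52 beside 0.0 over all tested genes. All 44 passed the filter on low counts. The 3 pro-lymphoid values lay above all 3 pro-myeloid values for 30 members (68.2%, against 26.4% of tested genes) and below them for Orc3 and E2f2 (4.55%, against 27.2%).

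The genes that rose were spread over the steps of replication. Licensing had Orc2 and Cdt1, the helicase Mcm2, Mcm5, Mcm6 and Mcm7, and helicase activation Mcm10. Priming and synthesis had Pola2, Prim1, Pold1 and Pole, and clamp loading Rfc2 and Rfc5. The others were Fen1, Tk1 and E2f1. Calls among the 16 genes depended in part on single libraries. With all libraries, 2169 tested genes were higher. Without pro-lymphoid replicate 5, 10 members were higher, and without replicate 6, 8, beside 1457 and 1298 of all tested genes. Without pro-myeloid replicate 2, 22 members and 2478 tested genes were higher. Without pro-myeloid replicate 4, 13 members were higher, 11 of them among the 16, beside 1394 tested genes. All 16 were still called without pro-myeloid replicate 3. DESeq2 called 27 members higher and upper-quartile scaling 25, each including the 16. Over all tested genes, DESeq2 called 2519 higher and upper-quartile scaling 2492.

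**Figure D1:**
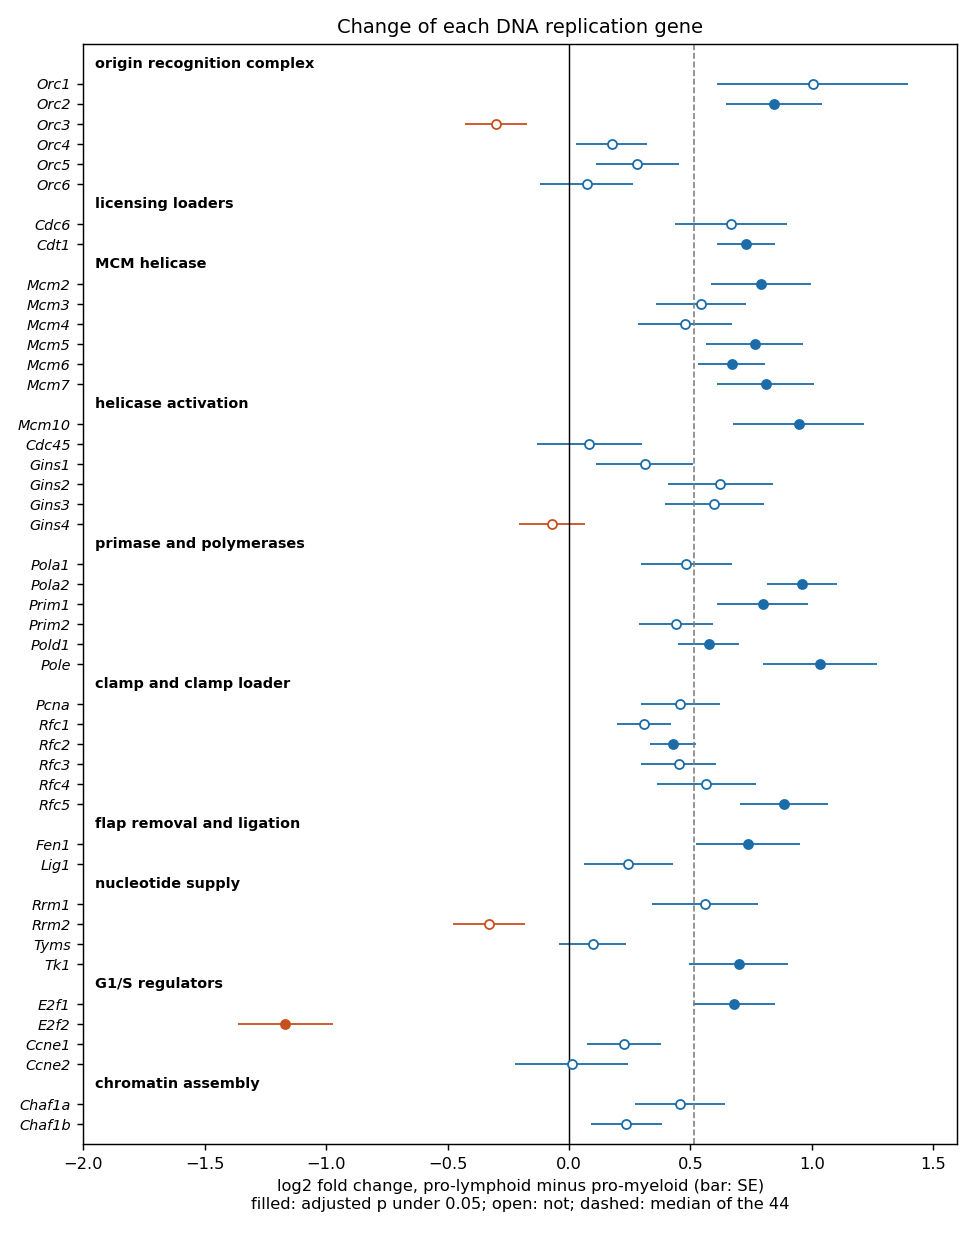
Fitted log2 fold change of each of the 44 genes, pro-lymphoid minus pro-myeloid culture, with its SE as bars, grouped by role. Filled points passed an adjusted p of 0.05 (16 higher, 1 lower), open points did not, and the dashed line is the median of 0.52.

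**Figure D2:**
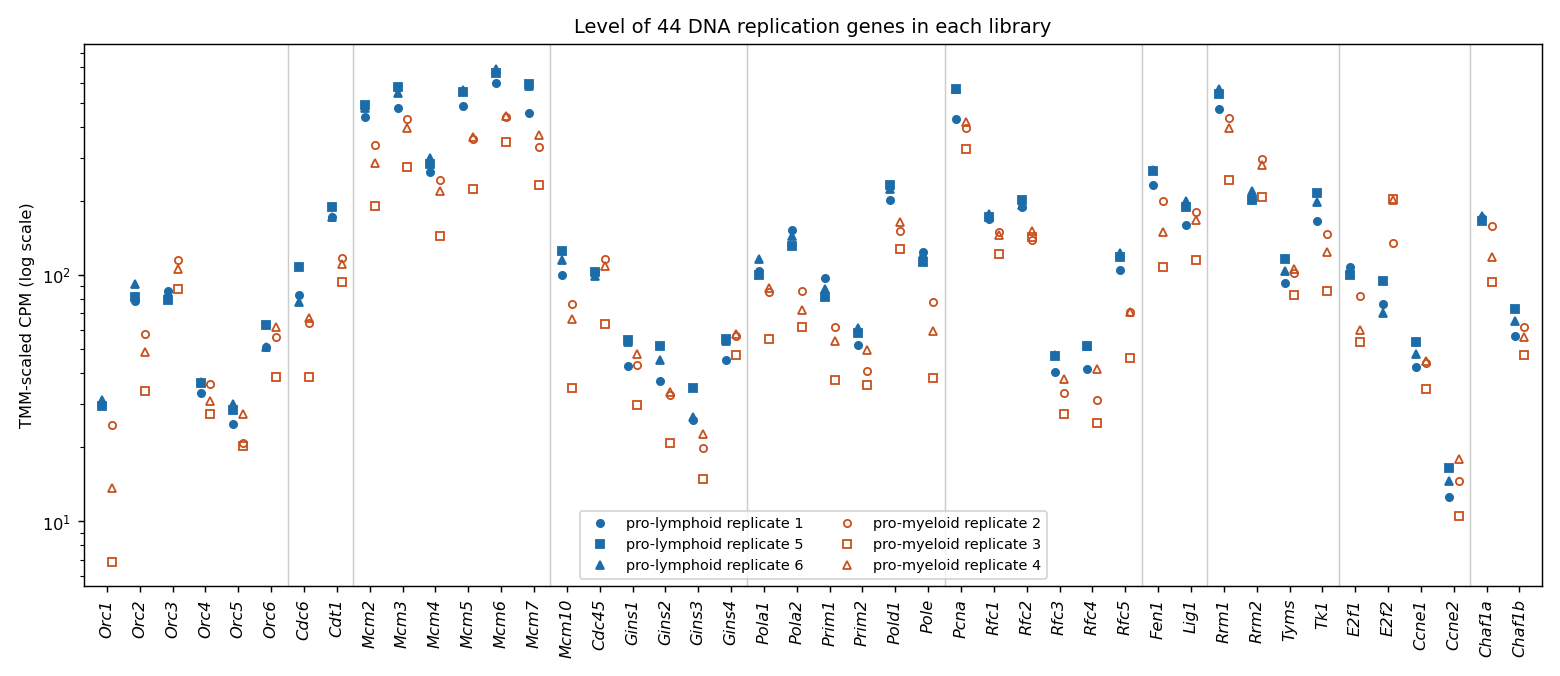
TMM-scaled CPM (log axis) of each gene in each library, filled blue for the 3 pro-lymphoid and open orange for the 3 pro-myeloid libraries, in the order of roles used in the text. E2f2 has its 3 orange points above all blue ones, and the orange square of pro-myeloid replicate 3 is the lowest point for 39 of 44 genes.

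Promoter sequences are given here because many of these genes share E2F-type letters. E2f2, the member that went the other way, holds them in 1 of its 2 RefSeq promoters, the one printed below. RefSeq promoters of build GRCm38.p6 (250 bases before to 50 after the start site, 300 bases) were matched by symbol for 36 of the 44 genes. Gins1, Gins2, Gins4, Rfc2, Pole, Ccne2, Mcm4 and Prim2 had no match. Searched were the letters TTTGGCGC, TTTCGCGC, TTTCCCGC and TTTGCCGC on both strands, where matches on opposite strands may overlap. In the windows below, read along the gene's strand, capitals mark these matches, and where matches on both strands overlap the capitals run through both. The Mcm6, Mcm5 and E2f2 windows belong to RefSeq start sites upstream of each gene's start in the counting annotation.

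Mcm6, chr1:128359656-128359955, minus strand: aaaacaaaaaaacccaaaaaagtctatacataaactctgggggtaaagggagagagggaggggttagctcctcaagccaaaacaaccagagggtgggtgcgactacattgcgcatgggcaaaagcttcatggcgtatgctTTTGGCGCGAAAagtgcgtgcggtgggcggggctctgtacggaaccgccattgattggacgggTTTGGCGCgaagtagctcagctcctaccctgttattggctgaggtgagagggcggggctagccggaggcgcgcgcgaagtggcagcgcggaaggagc
Mcm5, chr8:75109259-75109558, plus strand: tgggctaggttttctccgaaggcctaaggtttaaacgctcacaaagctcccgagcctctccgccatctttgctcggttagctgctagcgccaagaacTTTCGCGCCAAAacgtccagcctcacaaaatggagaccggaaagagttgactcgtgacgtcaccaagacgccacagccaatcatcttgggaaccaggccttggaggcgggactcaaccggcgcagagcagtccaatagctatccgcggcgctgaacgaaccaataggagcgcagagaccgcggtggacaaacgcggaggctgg
Cdt1, chr8:122567765-122568064, plus strand: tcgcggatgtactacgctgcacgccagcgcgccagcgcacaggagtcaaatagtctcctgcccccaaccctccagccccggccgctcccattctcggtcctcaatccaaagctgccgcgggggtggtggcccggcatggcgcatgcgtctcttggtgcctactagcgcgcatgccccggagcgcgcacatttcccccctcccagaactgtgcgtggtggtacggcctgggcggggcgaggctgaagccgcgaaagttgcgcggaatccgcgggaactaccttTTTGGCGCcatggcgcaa
E2f2, chr4:136172024-136172323, plus strand: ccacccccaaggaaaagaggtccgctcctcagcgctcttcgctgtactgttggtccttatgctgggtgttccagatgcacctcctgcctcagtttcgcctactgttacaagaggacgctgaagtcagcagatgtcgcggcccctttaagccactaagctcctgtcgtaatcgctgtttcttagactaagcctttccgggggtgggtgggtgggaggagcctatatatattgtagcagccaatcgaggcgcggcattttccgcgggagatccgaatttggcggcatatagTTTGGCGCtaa

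At least 1 match was present in 14 of the 36 genes (38.9%), namely Orc1, Orc3, Cdc6, Cdt1, Mcm3, Mcm5, Mcm6, Mcm7, Gins3, Pola1, Pold1, Rfc3, Lig1 and E2f2. Counted by promoter, 14 of 44 (31.8%) held a match, beside 2.26% of the 32851 promoters in the RefSeq table. By call, they were present in 5 of the 14 genes that rose and had a promoter (35.7%), in 8 of the 21 that did not pass (38.1%), and in E2f2, and the difference between these shares was not tested. The first bases of the 20 matches lay from 165 bases before to 39 after the start site. Mcm6 had 3 matches, and its first pair and the pair in Mcm5 each overlap on opposite strands. CCAAT, searched on both strands, was present in 24 of the 44 member promoters (54.5%) against 37.4% of all promoters. Among 17 mitosis genes with a promoter, 14 held CCAAT (82.4%) and 1 held an E2F-type match (5.88%). A match is a description of letters and not evidence of a factor's binding.

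**Figure D3:**
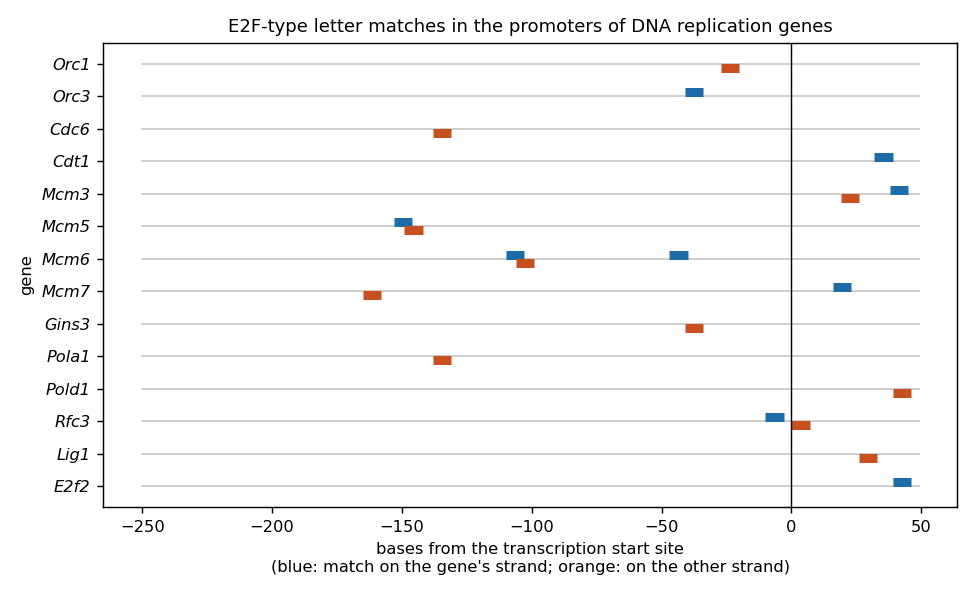
Position of the 20 E2F-type matches, in bases from the transcription start site, in the 14 genes that hold one. Grey lines are the 300-base windows, blue and orange blocks are matches on the gene's own and the other strand, and the matches lie on both sides of the start site.

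Of the 6 origin recognition genes, Orc2 rose in pro-lymphoid culture (16.7%, against 17.4% of all tested genes) and the other 5 did not pass. The median log2 fold change over the 6 was 0.23. Orc2 (chromosome 1, 58462771 to 58504919, mm10), a core subunit of the complex, measured 78.2, 81.1 and 92.4 CPM against 57.8, 33.8 and 48.6 CPM. No pro-myeloid value reached the lowest pro-lymphoid value, and the means were 83.9 ± 7.53 against 46.7 ± 12.1 CPM (log2 fold change 0.84 with an SE of 0.20, edgeR adjusted p = 0.0138). Orc1, the subunit whose amount cycles in many cells, measured 30, 29.3 and 31.2 CPM against 24.6, 6.87 and 13.7 CPM. Its mean was 2.01 times higher in pro-lymphoid culture, and its pro-myeloid libraries were widely spread, and it did not pass (log2 fold change 1.003 with an SE of 0.40, edgeR adjusted p = 0.0820). Orc3 (86.4, 79.5 and 84.8 CPM against 115, 87.6 and 106 CPM) was the ORC gene with the opposite order, all pro-myeloid values being above the pro-lymphoid ones, but the difference did not pass (log2 fold change -0.30 with an SE of 0.13, edgeR adjusted p = 0.0998). Orc4, Orc5 and Orc6 had log2 fold changes of 0.18, 0.28 and 0.07 (edgeR adjusted p = 0.377, 0.228 and 0.789). Without pro-lymphoid replicate 6 Orc2 did not pass (0.77), without pro-myeloid replicate 2 Orc1 did (1.54), and without pro-myeloid replicate 3 Orc3 passed as lower (-0.41). Exons of Orc3 and Orc4 overlap those of Akirin2 (128 bases) and Acvr2a (511 bases), and without strand such reads cannot be assigned.

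Both MCM loaders had higher means in pro-lymphoid culture, and Cdt1 passed. Cdt1 (chromosome 8, 122568015 to 122573130), which brings the MCM ring to ORC and is destroyed once S phase begins, measured 172, 189.8 and 172 CPM against 117, 94 and 111 CPM. The 2 groups did not overlap, and the spread within each was small beside the difference (178 ± 10.2 against 107 ± 12 CPM, log2 fold change 0.73 with an SE of 0.12, edgeR adjusted p = 0.00315). Its call held in all 6 fits that left out 1 library. Cdc6, the ATPase that works with ORC in loading, measured 83.3, 108 and 77.8 CPM against 63.7, 38.5 and 66.9 CPM. The groups did not overlap here either, yet the difference missed the threshold (log2 fold change 0.67 with an SE of 0.23, edgeR adjusted p = 0.0547).

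All 6 genes of the MCM2 to MCM7 helicase, the ring that unwinds the parental strands, had non-overlapping groups with pro-lymphoid values higher, and 4 passed. Mcm6 (chromosome 1, 128331591 to 128359656) measured 601, 663 and 689 CPM against 439, 347 and 442 CPM, a mean of 651 ± 44.7 against 409 ± 53.6 CPM. It had the smallest adjusted p of the helicase genes (log2 fold change 0.67 with an SE of 0.14, edgeR adjusted p = 0.00869) and its call held in each of the 6 fits that left out 1 library. Mcm7 measured 456, 594 and 587 CPM against 332, 231 and 370.2 CPM (log2 fold change 0.81 with an SE of 0.20, edgeR adjusted p = 0.0170). For Mcm2 the values were 436, 492 and 479 CPM against 336, 190.1 and 286 CPM (log2 fold change 0.79 with an SE of 0.21, edgeR adjusted p = 0.0204). Those of Mcm5 were 486, 554 and 563 CPM against 358, 223 and 362 CPM (log2 fold change 0.77 with an SE of 0.20, edgeR adjusted p = 0.0207). In all 3 the lowest value was that of pro-myeloid replicate 3, and the mean was 1.70 to 1.75 times higher in pro-lymphoid culture. Mcm3 measured 478, 578 and 549 CPM against 430.2, 274 and 396 CPM and did not pass (log2 fold change 0.55 with an SE of 0.19, edgeR adjusted p = 0.0525). Mcm4 measured 262, 283 and 298 CPM against 242, 144 and 219 CPM and did not pass either (log2 fold change 0.48 with an SE of 0.19, edgeR adjusted p = 0.0885). Both had the same order of groups, with smaller differences beside their spread. Leaving out pro-lymphoid replicate 5 or 6 ended the calls of Mcm2 (0.76 and 0.78), Mcm5 (0.74 and 0.73) and Mcm7 (0.75 and 0.76), with log2 fold changes close to those of all libraries. Leaving out pro-myeloid replicate 4 ended that of Mcm2 (0.83), and leaving out pro-myeloid replicate 2 let Mcm3 (0.68) and Mcm4 (0.63) pass.

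Of the 6 genes that activate the loaded helicase, Mcm10 was higher (16.7%, against 17.4% of all tested genes) and the other 5 did not pass. Mcm10, a factor needed for origin firing that is not part of the ring, measured 101, 126 and 116 CPM against 76.4, 34.8 and 66.1 CPM. The lowest value, in pro-myeloid replicate 3, was well below the other 5, and the means were 114 ± 12.6 against 59.1 ± 21.6 CPM (log2 fold change 0.95 with an SE of 0.27, edgeR adjusted p = 0.0296). Its call was lost without pro-lymphoid replicate 5 (0.87), pro-lymphoid replicate 6 (0.94) or pro-myeloid replicate 4 (1.03). Cdc45, which joins MCM and GINS in the moving helicase, measured 103, 103 and 99.6 CPM against 116, 63.2 and 109 CPM. Here 2 pro-myeloid libraries were above all pro-lymphoid ones and pro-myeloid replicate 3 was below them (log2 fold change 0.08 with an SE of 0.22, edgeR adjusted p = 0.784), and without that library the log2 fold change was -0.15. None of the 4 GINS subunits passed. Gins2 measured 37.3, 51.4 and 45.4 CPM against 32.5, 20.8 and 33.7 CPM, without overlap, and missed the threshold (log2 fold change 0.62 with an SE of 0.22, edgeR adjusted p = 0.0564). Gins3 did so too, at 25.9, 34.7 and 26.5 CPM against 19.9, 14.9 and 22.6 CPM (log2 fold change 0.60 with an SE of 0.21, edgeR adjusted p = 0.0537). Gins1 overlapped between the groups, at 42.6, 54.4 and 53.3 CPM against 43.3, 29.8 and 48 CPM (log2 fold change 0.31 with an SE of 0.20, edgeR adjusted p = 0.253). In Gins4, at 45.4, 54.8 and 54.2 CPM against 56.7, 47.4 and 57.9 CPM, the pro-myeloid mean was the higher one and the groups overlapped (log2 fold change -0.07 with an SE of 0.14, edgeR adjusted p = 0.716). Gins2 shares 118 of its 1038 exon bases with Gse1.

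Of the 6 genes of priming and synthesis, 4 rose, and all 4 kept their calls in every fit that left out 1 library. Pole (chromosome 5, 110286319 to 110337453), the catalytic subunit of the leading-strand polymerase epsilon, measured 124, 113 and 122 CPM against 77.5, 38.3 and 59.4 CPM. Its mean of 119.6 ± 5.47 against 58.4 ± 19.6 CPM was 2.05 times higher in pro-lymphoid culture, the largest pro-lymphoid to pro-myeloid ratio among the members (log2 fold change 1.03 with an SE of 0.24, edgeR adjusted p = 0.0123). Pola2 (chromosome 19, 5940543 to 5964206), the accessory subunit of polymerase alpha, measured 152, 132 and 144 CPM against 86.2, 61.7 and 72.1 CPM. It had the smallest adjusted p of the 44 genes (143 ± 10.4 against 73.3 ± 12.3 CPM, log2 fold change 0.96 with an SE of 0.14, edgeR adjusted p = 0.00226). Prim1, the catalytic primase subunit, measured 97.1, 81.7 and 87.6 CPM against 61.3, 37.7 and 54.2 CPM, with the groups well apart (log2 fold change 0.80 with an SE of 0.19, edgeR adjusted p = 0.0138). Pold1, the catalytic subunit of the lagging-strand polymerase delta, measured 203, 232 and 225 CPM against 151, 128 and 164 CPM and differed less (log2 fold change 0.58 with an SE of 0.13, edgeR adjusted p = 0.0107). The groups of the remaining genes did not overlap, with pro-lymphoid values higher, but neither gene passed. Pola1, the catalytic subunit of polymerase alpha, measured 104, 100.2 and 116 CPM against 85.3, 54.9 and 88.5 CPM (log2 fold change 0.48 with an SE of 0.19, edgeR adjusted p = 0.0796). Prim2, the large primase subunit, measured 51.8, 58.3 and 61 CPM against 40.6, 35.8 and 49.5 CPM (log2 fold change 0.44 with an SE of 0.15, edgeR adjusted p = 0.0543) and passed without pro-myeloid replicate 4 (0.57).

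All 6 genes of the sliding clamp and its loader had higher pro-lymphoid values without overlap, and 2 passed. Rfc5 (chromosome 5, 117379145 to 117389023), a small subunit of the loader, measured 105, 118 and 123 CPM against 70.5, 46.1 and 70.5 CPM, a mean of 115 ± 9.26 against 62.4 ± 14.1 CPM (log2 fold change 0.89 with an SE of 0.18, edgeR adjusted p = 0.00797). Rfc2, another small subunit, measured 189.7, 202 and 193 CPM against 139, 143 and 152 CPM. It was 1.35 times higher and passed, and both groups were narrow (195 ± 6.41 against 145 ± 6.39 CPM, log2 fold change 0.43 with an SE of 0.10, edgeR adjusted p = 0.0112), and both calls held whichever library was left out. Rfc2 was also 1 of the 5 members whose lowest value was not in pro-myeloid replicate 3. Pcna, the clamp that tethers the polymerases, measured 431, 569 and 568 CPM against 396, 325 and 419.5 CPM and narrowly missed the threshold (log2 fold change 0.46 with an SE of 0.16, edgeR adjusted p = 0.0579), passing without pro-lymphoid replicate 1 (0.58). Rfc1, Rfc3 and Rfc4 had log2 fold changes of 0.31, 0.45 and 0.56 (edgeR adjusted p = 0.0625, 0.0541 and 0.0629), and the groups of Rfc4 all but touched, at 41.68 and 41.65 CPM. Of these, Rfc1 passed without pro-myeloid replicate 2 (0.36) and Rfc4 without pro-myeloid replicate 4 (0.78). Rfc4 shares 160 of 1216 exon bases with Eif4a2.

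Of the pair that finishes lagging-strand fragments, Fen1, the nuclease that removes flaps, measured 231, 266 and 267 CPM against 201, 108 and 149 CPM and rose (255 ± 20.5 against 153 ± 46.3 CPM, log2 fold change 0.74 with an SE of 0.22, edgeR adjusted p = 0.0312). Lig1, the ligase that seals the nicks, measured 159.6, 189 and 200.1 CPM against 180.2, 115 and 168 CPM, with overlapping groups (log2 fold change 0.24 with an SE of 0.18, edgeR adjusted p = 0.326). The call of Fen1 was lost without pro-lymphoid replicate 5 (0.71), pro-lymphoid replicate 6 (0.70) or pro-myeloid replicate 4 (0.72). Lig1 shares 116 exon bases with 6330408A02Rik. The chromatin assembly genes Chaf1a and Chaf1b, subunits of the factor that places histones on new DNA, did not pass. Chaf1a measured 171, 165 and 174 CPM against 159, 93.7 and 119 CPM (log2 fold change 0.46 with an SE of 0.19, edgeR adjusted p = 0.0899), and Chaf1b measured 56.6, 72.6 and 65 CPM against 61.3, 47.3 and 56.2 CPM (log2 fold change 0.24 with an SE of 0.15, edgeR adjusted p = 0.240). Chaf1a did not overlap between the groups and passed without pro-myeloid replicate 2 (0.67).

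Of the 4 nucleotide supply genes, 1 rose (25%, against 17.4% of all tested genes) and the other 3 did not pass. Tk1, the thymidine kinase of dividing cells, measured 166, 215 and 198 CPM against 147, 85.8 and 124 CPM and rose (193 ± 24.4 against 119 ± 30.9 CPM, log2 fold change 0.70 with an SE of 0.20, edgeR adjusted p = 0.0314), a call lost without pro-lymphoid replicate 5 (0.62), pro-lymphoid replicate 6 (0.68) or pro-myeloid replicate 4 (0.72). Ribonucleotide reductase makes deoxyribonucleotides from a large subunit, encoded by Rrm1, and a small one, encoded by Rrm2. Rrm1 measured 474, 541 and 571 CPM against 436, 243 and 396 CPM (log2 fold change 0.56 with an SE of 0.22, edgeR adjusted p = 0.0803). Rrm2 measured 202, 202 and 219 CPM against 296, 208 and 279 CPM (log2 fold change -0.33 with an SE of 0.15, edgeR adjusted p = 0.118). Neither difference passed, and the mean of Rrm1 was higher in pro-lymphoid and that of Rrm2 in pro-myeloid culture. Rrm1 passed without pro-myeloid replicate 2 (0.72), and Rrm2 passed as lower without pro-myeloid replicate 3 (-0.47). Per kilobase of exon, Rrm1 stood at 1.28, 1.46 and 1.42 times Rrm2 in the pro-lymphoid libraries and at 0.802, 0.637 and 0.775 times in the pro-myeloid ones. The order per kilobase was thus opposite in the 2 cultures, and it depends on the exon lengths used (3997 bases for Rrm1, 2180 for Rrm2). In CPM, not divided by length, Rrm1 was above Rrm2 in every library. This pair was chosen after its values were seen, and its ratio was not tested. Tyms, which makes thymidylate, measured 92.6, 116 and 104 CPM against 102, 83.2 and 106 CPM, with overlapping groups (log2 fold change 0.10 with an SE of 0.14, edgeR adjusted p = 0.604). Tk1 shares 88 exon bases with Afmid.

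Among the G1/S regulators, E2f1 and E2f2 moved in opposite directions. E2f1 (chromosome 2, 154559639 to 154569852), an activating E2F factor, measured 108, 100.2 and 106 CPM against 82.3, 53.5 and 60 CPM, higher in every pro-lymphoid library (105 ± 3.99 against 65.3 ± 15.1 CPM, log2 fold change 0.68 with an SE of 0.17, edgeR adjusted p = 0.0168). E2f2 (chromosome 4, 136172394 to 136196056), also counted among the activating E2Fs, measured 76.3, 94.3 and 70.1 CPM against 135, 204 and 202 CPM. The lowest pro-myeloid value was above the highest pro-lymphoid one, and the mean was 2.25 times higher in pro-myeloid culture (80.2 ± 12.6 against 180.1 ± 39.5 CPM, log2 fold change -1.17 with an SE of 0.19, edgeR adjusted p = 0.00350). E2f2 was the only member with its highest value in pro-myeloid replicate 3, and its call held in all 6 fits that left out 1 library. That of E2f1 was lost without pro-lymphoid replicate 6 (0.68) or pro-myeloid replicate 4 (0.62). Per kilobase of exon, E2f1 stood at 2.73, 2.05 and 2.91 times E2f2 in pro-lymphoid and at 1.18, 0.505 and 0.573 times in pro-myeloid libraries, a ratio chosen after its values were seen and not tested. The E cyclins, which switch on CDK2 at the start of S phase, overlapped between the cultures. Ccne1 measured 42.4, 53.6 and 47.9 CPM against 43.9, 34.4 and 44.6 CPM (log2 fold change 0.23 with an SE of 0.15, edgeR adjusted p = 0.281). Ccne2 measured 12.5, 16.5 and 14.6 CPM against 14.6, 10.6 and 18 CPM, with nearly equal means (log2 fold change 0.01 with an SE of 0.23, edgeR adjusted p = 0.973). Ccne2 shares 1734 of its 3217 exon bases with Ints8, where reads of both genes cannot be told apart without strand, so its level is uncertain.

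The pro-myeloid libraries were not alike in these genes. Pro-myeloid replicate 3 was the lowest of the 6 libraries for 39 of 44 members, as it was for 23.7% of all tested genes. Against the pro-lymphoid mean, the median member stood at a log2 of -0.37, -0.91 and -0.36 in pro-myeloid replicates 2, 3 and 4, and at -0.13, 0.06 and 0.04 in the pro-lymphoid libraries. The 44 genes took 0.752%, 0.812% and 0.802% of all counts in pro-lymphoid and 0.619%, 0.413% and 0.588% in pro-myeloid libraries. Both other pro-myeloid libraries were thus also below every pro-lymphoid one. Without pro-myeloid replicate 3 the median log2 fold change was 0.36 in place of 0.52, and the same 16 genes remained higher. The median coefficient of variation over the members was 8.61% in pro-lymphoid culture and 22.8% in the other, and it was larger in pro-myeloid culture for 43 of 44 genes. Over all tested genes the medians were 12.7% and 16.8%.

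Other values of pro-myeloid replicate 3 stand beside this. All 21 mitosis genes were lowest there, with a median log2 of -0.88 against the pro-lymphoid mean, beside -0.05 in replicate 2 and -0.39 in replicate 4. Granule markers summed to 4777, 6608 and 9076 CPM in pro-myeloid replicates 2, 3 and 4, and monocyte and macrophage markers to 1369, 1222 and 754 CPM, so that both sums were intermediate in replicate 3. Of the 6 tested granule markers, Mpo (148, 1511 and 3304 CPM), Ctsg (1908, 1933 and 2386 CPM) and Ngp (0.703, 8.17 and 11.2 CPM) rose in that order. Lcn2 (246.5, 175 and 124 CPM) fell. Elane (1461, 1322 and 1743 CPM) was lowest in replicate 3, and Prtn3 (1012, 1657 and 1507 CPM) was highest there. Of the 6 monocyte and macrophage markers, Csf1r (579, 536 and 251 CPM) and Itgam (667, 488 and 390 CPM) were highest in replicate 2. Cd68 (73.0, 77.1 and 53.5 CPM), Emr1 (26.0, 76.6 and 30.5 CPM), Cd14 (24.0, 44.3 and 29.3 CPM) and Mrc1 (0.182, 0.385 and 0.130 CPM) were highest in replicate 3. Of the 5 progenitor markers, Kit (18.9, 13.3 and 42.6 CPM), Cd34 (151, 100.2 and 100.5 CPM), Hoxa9 (219, 209 and 216 CPM) and Meis1 (103, 87.9 and 132 CPM) had their lowest pro-myeloid value in replicate 3, and Ptprc (354, 433 and 369.9 CPM) its highest. The part of these in the replication values was not tested.

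**Figure D4:**
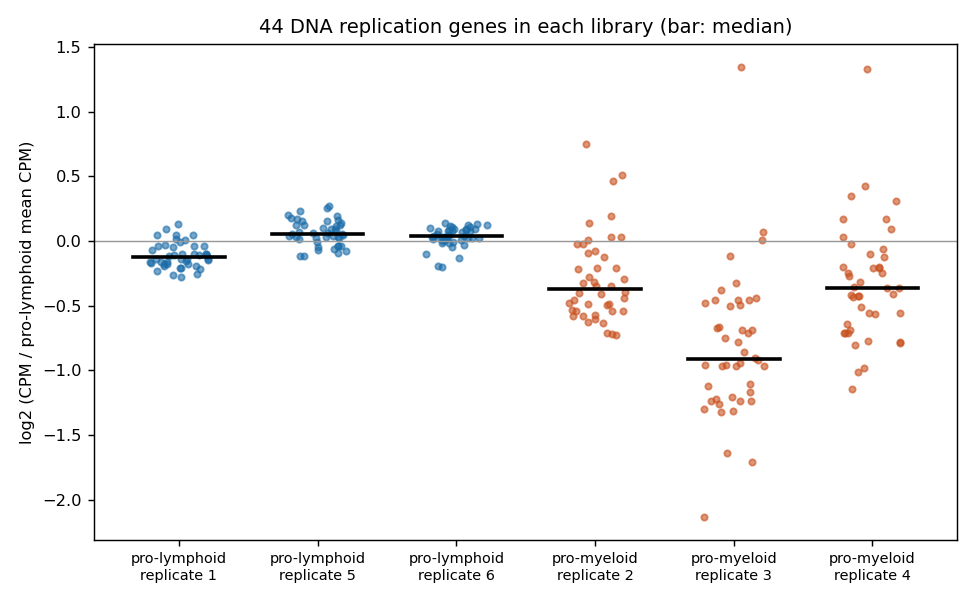
Log2 of each gene's CPM over its pro-lymphoid mean (y axis), 1 point per gene and 1 column per library, with the median as a black bar. Medians lie at -0.13, 0.06 and 0.04 in pro-lymphoid and at -0.37, -0.91 and -0.36 in pro-myeloid libraries, and the single points at the top of the pro-myeloid columns are E2f2.

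Subunits of a complex were not present at equal transcript levels. Levels per kilobase of exon were used to compare genes. Within the MCM ring, Mcm7 (228 ± 32.5 CPM per kilobase in pro-lymphoid culture, 129.9 ± 29.9 in pro-myeloid) and Mcm6 (224 ± 15.4 CPM per kilobase in pro-lymphoid culture, 141 ± 18.5 in pro-myeloid) had the highest means and Mcm4 (78.2 ± 5.05 CPM per kilobase in pro-lymphoid culture, 56.2 ± 14.4 in pro-myeloid) the lowest. The highest stood at 2.91 times the lowest in pro-lymphoid culture and 2.51 times in the other. Mcm6 and Mcm7 changed places between the cultures by less than their spread. By mean, the order below them was Mcm3, Mcm5, Mcm2 and Mcm4 in both. In pro-myeloid culture, however, Mcm3 (127 ± 28.4 CPM per kilobase) was level with Mcm7. In ORC, Orc6 was the most abundant in both cultures (33.2 ± 4.02 CPM per kilobase in pro-lymphoid culture, 31.5 ± 7.21 in pro-myeloid), and the range was 4.65 times in pro-lymphoid culture, down to Orc4, and 6.32 times in pro-myeloid culture, down to Orc1 (10 ± 0.314 CPM per kilobase in pro-lymphoid culture, 4.99 ± 2.96 in pro-myeloid). In pro-myeloid culture Orc4 (6.3 ± 0.91 CPM per kilobase) was above Orc1 by less than the spread of Orc1. Within GINS, Gins3 was lowest in both (12 ± 2.04 CPM per kilobase in pro-lymphoid culture, 7.93 ± 1.61 in pro-myeloid), and the highest mean was 3.59 times that of Gins3 in pro-lymphoid culture and 4.99 times in the other. At the top the means differed by less than their spread, Gins1 (43.2 ± 5.65 CPM per kilobase in pro-lymphoid culture, 34.8 ± 8.13 in pro-myeloid) being level with Gins2 (43.1 ± 6.82 CPM per kilobase in pro-lymphoid culture, 27.9 ± 6.86 in pro-myeloid) in pro-lymphoid culture and Gins4 (37.7 ± 3.88 CPM per kilobase in pro-lymphoid culture, 39.6 ± 4.20 in pro-myeloid) close to Gins1 in pro-myeloid culture. Rfc2 was the highest clamp loader subunit (128 ± 4.22 CPM per kilobase in pro-lymphoid culture, 95.3 ± 4.21 in pro-myeloid) and Prim1 the highest of polymerase alpha-primase (57.9 ± 5.06 CPM per kilobase in pro-lymphoid culture, 33.3 ± 7.93 in pro-myeloid), whose lowest was Pola1 (19.9 ± 1.55 CPM per kilobase in pro-lymphoid culture, 14.3 ± 3.47 in pro-myeloid). Exon length here is that of all exons of a gene in the annotation, so a gene with unused long exons would be placed too low.

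**Figure D5:**
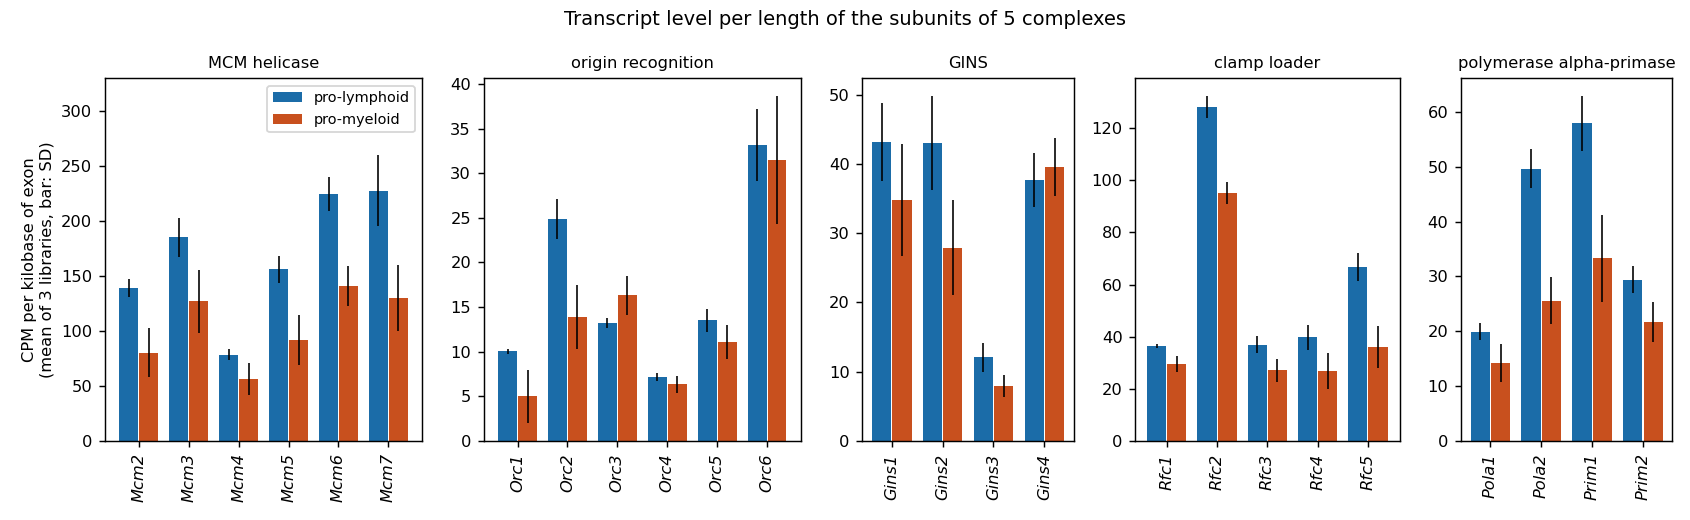
Mean CPM per kilobase of exon (linear axes from 0, each panel with its own scale) of the subunits of 5 complexes, pro-lymphoid in blue and pro-myeloid in orange, with the SD of 3 libraries as bars. Mcm6 and Mcm7 are the highest and Mcm4 the lowest of the MCM ring, and Gins4 is the only GINS subunit with a higher orange bar.

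Genes of the same process outside the 44 were read from 6 lists with 92 genes, all tested, of which 34 rose (37.0%, against 17.4% of all tested genes) and 1 fell (1.09%, against 21.3%) in pro-lymphoid culture. In either direction 35 passed (38.0%), which is about the background of 38.6%. They had a median log2 fold change of 0.49. Of 28 other replication factors, 12 were higher (42.9%) and none lower (median 0.56). Cdc7, the kinase that triggers the loaded helicase, measured 69.4, 63.4 and 67.1 CPM against 28.8, 17.5 and 22 CPM and was 2.93 times higher (log2 fold change 1.55 with an SE of 0.19, edgeR adjusted p = 0.000891). Its groups were farther apart than those of any of the 44 genes by ratio of means. Clspn, a fork mediator, Rpa2, a subunit of the single-strand binding protein, and Pold3, an accessory subunit of polymerase delta, also rose, by log2 0.93, 0.87 and 0.72 (edgeR adjusted p = 0.00970, 0.0103 and 0.00419). The count of 12 fell to 6 without pro-lymphoid replicate 5 and to 6 without replicate 6, and was 19 without pro-myeloid replicate 2. The count over all tested genes, 2169 with all libraries, was 1457, 1298 and 2478 in these fits.

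Of 8 other nucleotide supply genes, 4 were higher (50%) and 1 lower (12.5%) (median 0.41). Shmt1, a folate enzyme that serves thymidylate synthesis, rose by log2 1.24 (edgeR adjusted p = 0.00369), and Samhd1, which degrades deoxyribonucleotides, by log2 0.63 (edgeR adjusted p = 0.0219). Rrm2b, the small reductase subunit used outside S phase, measured 10.3, 10.1 and 9.80 CPM against 15.4, 18.6 and 20.5 CPM and was lower (log2 fold change -0.85 with an SE of 0.17, edgeR adjusted p = 0.00815). Both small-subunit genes, Rrm2 and Rrm2b, thus had higher means in pro-myeloid culture, although the difference of Rrm2 did not pass. Without pro-lymphoid replicate 5 the list had 2 higher genes, beside 1457 of all tested genes. Without pro-myeloid replicate 2 it had 2 lower, beside 2907 of all tested genes. The call of Samhd1 was lost without pro-lymphoid replicate 1 (0.58) or 5 (0.62) or pro-myeloid replicate 4 (0.51).

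Of 11 other E2F, DP and pocket protein genes, 3 were higher (27.3%) and none lower (median 0.46), and all 3 were E2F factors. E2f3, the remaining activating E2F, measured 104, 77 and 86.4 CPM against 40.1, 20.5 and 29.1 CPM and was 2.99 times higher in pro-lymphoid culture (log2 fold change 1.58 with an SE of 0.25, edgeR adjusted p = 0.00270). Together with E2f1 it moved against E2f2. The repressor genes E2f4 and E2f6 rose by log2 0.65 and 1.17 (edgeR adjusted p = 0.00235 and 0.000720), and E2f8 did not pass (log2 fold change 0.75 with an SE of 0.27, edgeR adjusted p = 0.0660). Without pro-myeloid replicate 2 the list had 5 higher genes, beside 2478 of all tested genes, with E2f8 among those that passed (1.04). Per kilobase of exon, E2f1 was the highest of the 3 activating factors in pro-lymphoid culture (42.5 ± 1.62 CPM per kilobase in pro-lymphoid culture, 26.5 ± 6.14 in pro-myeloid), where E2f2 (16.9 ± 2.65 CPM per kilobase in pro-lymphoid culture, 38 ± 8.34 in pro-myeloid) and E2f3 (17.5 ± 2.72 CPM per kilobase in pro-lymphoid culture, 5.86 ± 1.93 in pro-myeloid) lay close together. In pro-myeloid culture E2f2 had the highest mean and E2f3 the lowest.

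Of 8 histone chaperone and chromatin replication genes, 5 were higher (62.5%) and none lower (median 0.70). Ssrp1, a subunit of the histone chaperone FACT, measured 589.8, 716 and 676 CPM against 314, 285 and 325 CPM (log2 fold change 1.10 with an SE of 0.13, edgeR adjusted p = 0.000720), and its partner Supt16h rose by log2 0.66 (edgeR adjusted p = 0.0132). Nasp, a histone carrier, and Uhrf1, which brings DNA methylation to new strands, rose by log2 0.98 and 1.05 (edgeR adjusted p = 0.00545 and 0.00684). Without pro-lymphoid replicate 6 the count was 3, beside 1298 of all tested genes, and Supt16h was not among the 3 (0.55).

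Of 16 checkpoint and fork repair genes, 8 were higher (50%) and none lower (median 0.58). The exonuclease gene Exo1 and the checkpoint kinase gene Chek1 rose by log2 1.22 and 0.88 (edgeR adjusted p = 0.0179 and 0.0163). The count was 5 without pro-lymphoid replicate 5 and 1 without replicate 6, beside 1457 and 1298 of all tested genes. Chek1 (0.81) and Exo1 (1.21) lost their calls without replicate 6.

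Of 21 mitosis genes, 2 were higher (9.52%, below the 17.4% of all tested genes) and none lower (median 0.38). Cenpa, the centromeric histone, and Aurkb, a mitotic kinase, rose by log2 0.49 and 0.58 (edgeR adjusted p = 0.0172 and 0.0315). Ccnb2 and Birc5 had log2 fold changes of 0.48 and 0.51 and did not pass (edgeR adjusted p = 0.0570 and 0.0826). The mitosis count changed when single libraries were left out. It was 12 without pro-myeloid replicate 2 (median 0.61), 1 without pro-lymphoid replicate 1, and 0 without pro-lymphoid replicate 5 or 6. Of all tested genes, 2169 were higher with all libraries, and 2478, 1877, 1457 and 1298 in these fits, in the same order. Cenpa lost its call without pro-lymphoid replicate 5 (0.43) or 6 (0.47). Aurkb lost its call without pro-lymphoid replicate 1 (0.62), 5 (0.55) or 6 (0.57) or pro-myeloid replicate 4 (0.64). Pro-myeloid replicate 2 was close to the pro-lymphoid libraries in the median mitosis gene (log2 -0.05) and below them in the median replication gene (-0.37), and whether the 2 sets of genes differ in their response was not tested.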

How the data were processed

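Polyadenylated RNA of 3 pro-lymphoid and 3 pro-myeloid libraries was compared. The authors deposited raw read counts per gene and exon lengths (other values), not normalized. Per the file headers, featureCounts 1.5.1 counted primary alignments over exons of mm10 UCSC annotation without strand, so reads of overlapping or antisense genes cannot be told apart. The submitters' processing notes also name TopHat, Bowtie, Trimmomatic and DESeq2, with their settings not given in the sources used here.

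Counts were tested with edgeR 4.0.16 (R 4.3.3): filterByExpr (12477 of 23337 genes kept), TMM, quasi-likelihood F test (legacy = FALSE), Benjamini-Hochberg over all tested genes at 0.05, two-sided. SE is the log2 fold change over the square root of F. CPM values used TMM factors of 0.961 to 1.05. Per-length levels used the deposited exon lengths. No replicate number occurs in both groups, so nothing was paired. The procedure was tested on simulated data. Members, lists and the rule for named genes (all 44 members, and up to 4 genes of each related list by smallest adjusted p) were chosen with earlier results of these data known. A few related genes that the rule picks are not reported here, though the counts of their lists include them. Of the 92 related genes, 2 were found under older symbols (Supt16h for Supt16, 5730590G19Rik for Ticrr). Alternatives were other scalings, filters and tools (DESeq2 1.42.0, limma-voom 3.58.1), a log2 minimum of 1, and each library left out. Chosen after seeing the data were edgeR's older quasi-likelihood method and the members without those 7 whose exons overlap another gene's.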

Additional observations from a re-analysis of the deposited data

How the results depend on the processing

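Of 616 values of the 44 genes under alternatives, 551 kept their direction and side of the threshold, 19 lost and 39 gained a call, and 7 changed sign, none of them called. Changed and higher members, 17 and 16 here, numbered 26 and 25 with upper-quartile scaling and 28 and 27 with DESeq2. Over all genes, 4821 and 2169 here, they numbered 4965 and 2492 with upper-quartile scaling and 5432 and 2519 with DESeq2. The members numbered 2 and 1 with a log2 minimum of 1, where all genes gave 2620 (985 higher, 1635 lower). With single libraries left out, changed members ranged from 9 to 23 (8 to 22 higher, 1 to 3 lower), their median from 0.364 to 0.607, and all genes from 3086 to 5385 (1298 to 2478 higher, 1788 to 2907 lower). Cdt1, Mcm6, Pola2, Prim1, Pold1, Pole, Rfc2, Rfc5 and E2f2 were called in all 6 such fits. Signs changed without pro-lymphoid replicate 1 for Gins4 (range over left-out libraries -0.155 to 0.016), without pro-lymphoid replicate 5 or pro-myeloid replicate 3 for Orc6 (-0.103 to 0.208) and Ccne2 (-0.167 to 0.202), and without pro-myeloid replicate 3 for Cdc45 (-0.145 to 0.241) and Tyms (-0.004 to 0.177). The cause was not tested. No paired analysis was possible because the groups share no replicate number. With 3 libraries a group, differences near the members' median SE of 0.19 were not detectable.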
